A study of Mus musculus with 4 samples.

Results

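RNase P and RNase MRP are ribonucleoprotein enzymes, each built on 1 catalytic RNA, and 10 genes encoding their subunits were followed here out of 18386 features counted in mouse cortex. The genes were picked by name from a list of subunits and not by any measured value, though earlier results of these data were known. They comprise 2 RNA subunits, Rpph1 of RNase P and Rmrp of RNase MRP, and 8 protein subunits, Pop1, Pop4, Pop5, Pop7, Rpp21, Rpp30, Rpp38 and Rpp40. The libraries were made from cortical tissue of 2 male APPswe/PS1ΔE9 animals (APP), which carry a mutant human APP and a mutant presenilin transgene under the prion protein promoter and model the amyloid pathology of AD, and of 2 male wild type mice (WT), all aged 12 months and labelled C57BL/6 (the study's methods name C57BL/6J for WT). Each library is 1 mouse, the APP mice are of 1 transgenic line, and no agent was given. The APP libraries are named APP.3 and APP.4 after the deposited columns, and the WT libraries WT.1 and WT.2. Total RNA was depleted of ribosomal RNA and sequenced as paired reads of 100 bases, and the authors counted reads on each transcript.

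RNase P removes the 5′ leader from precursor tRNAs. RNase MRP cuts the precursor of ribosomal RNA, and in mammalian cells its RNA is also found in mitochondria. Most of the protein subunits are shared between the enzymes, so that the RNA is the main part that tells them apart, while Rpp21 is known as a subunit of RNase P. Both RNAs are transcribed by RNA polymerase III from promoters that lie upstream of the gene, and the mRNAs of the protein subunits by RNA polymerase II. The question put to the data was whether the mRNAs of the protein subunits moved with the RNAs.

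The libraries held between 28525117 and 43881196 counts. All of the 10 genes were detected in every library, and the smallest count among them was 80, for Rpp21 in APP.4. The 6 cortical excitatory neuron markers summed to between 2839 and 3296 CPM (counts scaled to a common library size) in each library, so the defining markers of the labelled tissue were present. App, on which reads of the transgene can be counted, had 2679 and 2388 CPM in the APP libraries and 857 and 905 in the WT libraries, higher in each library labelled as transgenic. Gapdh (log2 fold change -0.12, adjusted p = 0.593) and Actb (0.00, adjusted p = 0.996) did not pass edgeR's quasi-likelihood test, which is used throughout with Benjamini-Hochberg adjustment over all features. CPM values were scaled to the TMM library sizes, and errors are SDs over 2 mice. With 2 mice against 2, the smallest p of an exact permutation test is 0.333, and the adjusted p-values depend on edgeR's pooling of the spread over genes.

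Rpph1 is a single transcript of 319 nucleotides, annotated at 50807449 to 50807767 of chromosome 14 (GRCm38, minus strand). Its first 300 nucleotides are shown because the element read by miR-330-5p and miR-326-3p, which the study placed in Rpph1, falls within them. Capitals mark the 8-base element, which miR-330-5p matches in full and miR-326-3p over the first 7 bases of the element. The sequence is that of GENCODE M21.
Rpph1: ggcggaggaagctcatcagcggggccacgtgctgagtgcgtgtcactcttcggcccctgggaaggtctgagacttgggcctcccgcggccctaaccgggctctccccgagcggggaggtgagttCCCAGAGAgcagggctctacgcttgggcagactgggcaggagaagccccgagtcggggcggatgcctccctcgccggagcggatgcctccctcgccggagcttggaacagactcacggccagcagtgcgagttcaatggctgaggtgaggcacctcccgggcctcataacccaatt

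Rmrp, at 43492788 to 43493058 of chromosome 4 (minus strand), is 271 nucleotides long. It is shown whole, from the same source, to set it beside Rpph1.
Rmrp: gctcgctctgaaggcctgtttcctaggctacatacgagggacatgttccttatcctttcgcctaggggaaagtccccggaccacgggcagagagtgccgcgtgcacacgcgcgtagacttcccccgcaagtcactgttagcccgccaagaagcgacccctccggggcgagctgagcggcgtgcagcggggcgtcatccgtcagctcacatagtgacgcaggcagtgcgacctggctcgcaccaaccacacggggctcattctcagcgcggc

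The longest run of bases that the 2 RNAs share in their alignment is 9. None of the 172 stretches of 100 bases in Rmrp came within 7 mismatches of Rpph1, the read length and the number of mismatches that the authors' alignment allowed. Rmrp thus shares no stretch on which a whole read of Rpph1 could be placed at that setting.

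Both RNA subunits had higher levels in each APP library than in each WT library. Rmrp rose 1.29-fold, which passed the test, and Rpph1 was 1.54-fold higher on average, which did not. The study, which tested transcripts with edgeR, took Rpph1 from its list of differentially expressed lncRNAs in these libraries. It also reported higher Rpph1 by quantitative RT-PCR in cortex and hippocampus of APP mice, data that were not analysed here. None of the 8 protein subunits passed, 1 of them (Pop5) had an unadjusted p under 0.05, and DESeq2 and edgeR's exact and likelihood ratio tests also called 0 of them. Their median log2 fold change was -0.02, beside -0.001 over all features, and ran from -0.30 for Pop4 to 0.24 for Pop1. Of the 10 genes, 1 passed an adjusted p of 0.05, where 1.14% of all features did so in either direction and 1.02% as higher in APP. The number of the 10 that also reached a fold change of 1.5 was 0, against 0.881% of all features. An unadjusted p under 0.05 was found for 3 of the 10 in edgeR's quasi-likelihood fit, and for 2232 of all 18386 features. DESeq2 also called 0 past both cut-offs, and the exact and likelihood ratio tests 1 each, Rpph1. Groups did not overlap for 3 of the 10 genes, Rpph1, Rmrp and Pop5, where 42.7% of all features had groups that did not overlap, so the lack of overlap by itself set none of them apart.

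Rmrp was counted at 2571 CPM for APP.3, 2801 for APP.4, 2031 for WT.1 and 2137 for WT.2. Both APP libraries stood above both WT libraries, and the gap between the groups was wider than that between mice of 1 group. The means were 2686 ± 162 CPM for APP and 2084 ± 75.0 for WT (SD, n = 2). The log2 fold change was 0.37, with a standard error of 0.06 and a 95% interval of 0.23 to 0.50, and its adjusted p by edgeR's quasi-likelihood test was 0.0305. The call was lost with edgeR's exact test (adjusted p = 0.0713) and its likelihood ratio test (adjusted p = 0.0688), and DESeq2 gave an adjusted p of 0.000156. It was also lost without WT.1, at a log2 fold change of 0.33 and an adjusted p of 0.452 from edgeR, and without WT.2, at 0.41 and 0.254.

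Rpph1 stood at 3862 CPM for APP.3, 2605 for APP.4, 2024 for WT.1 and 2184 for WT.2. The groups did not overlap, but APP.3 was far above APP.4, and the APP mice differed 1.48-fold where the WT mice differed 1.08-fold. The mean was 3234 ± 889 CPM for APP and 2104 ± 113 for WT (SD, n = 2). The log2 fold change of 0.62 had a standard error of 0.15 and a 95% interval of 0.28 to 0.96, and edgeR's quasi-likelihood test gave an adjusted p of 0.114. Leaving out APP.3 brought it to 0.31, and leaving out APP.4 to 0.88. With transcripts in place of genes, the same counts of Rpph1 gave a log2 fold change of 0.63 that passed (adjusted p = 0.0214, quasi-likelihood test of edgeR), as did Rmrp (0.37, adjusted p = 0.00979). No other transcript of the 10 genes passed in that fit, where 1.06% of 37539 transcripts did. The exact test gave Rpph1 an adjusted p of 0.0314 and DESeq2 one of 0.492.

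**Figure D1:**
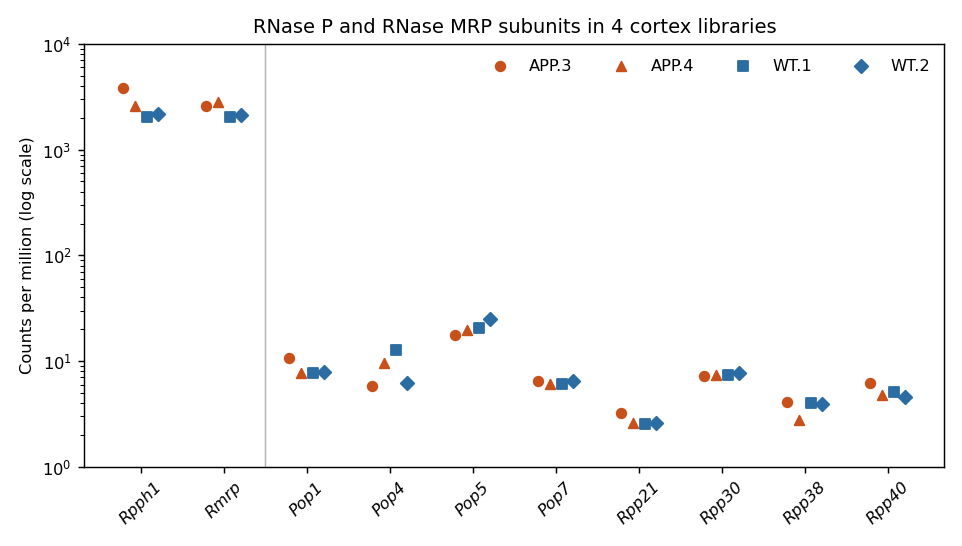
CPM of each subunit gene (log axis) in the 4 libraries, with circles and triangles for the APP mice and squares and diamonds for the WT mice, and the RNA subunits left of the vertical line. Rpph1 and Rmrp lie at or above 2024 CPM in each library, and none of the protein subunits exceeds 25.1 CPM.

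The RNAs were far more abundant than the mRNAs of their partner proteins. Per kilobase of transcript, Rmrp had a mean of 8801 CPM and Rpph1 one of 8366 CPM over the 4 libraries, and the next gene, Pop5, had 21.6. Rmrp was the higher of the RNAs per kilobase in WT.1 (7495 against 6346 CPM per kilobase), WT.2 (7887 against 6845) and APP.4 (10335 against 8167). In APP.3 the order was reversed, with 9487 CPM per kilobase for Rmrp and 12106 for Rpph1. Below Pop5, Pop7 had 7.05 and Rpp30 6.49 CPM per kilobase, and Pop7 was the higher in each library. Pop4 (4.05), Rpp21 (3.87), Rpp38 (3.55) and Pop1 (3.05) followed in CPM per kilobase, and neighbours in that order had overlapping ranges over the libraries, while Rpp21 was above Pop1 in each library. Rpp40 was the lowest in each library, with a mean of 1.24 CPM per kilobase.

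Among the subunits that bind along the RNA in both enzymes, Pop1 encodes the largest protein. Its level was 10.6 CPM for APP.3, 7.72 for APP.4, 7.67 for WT.1 and 7.81 for WT.2. APP.3 was above the other 3 libraries, which lay close together, so that the groups overlapped. The log2 fold change was 0.24 (95% interval -0.14 to 0.61, adjusted p = 0.629 by edgeR), and -0.004 without APP.3.

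Pop4 and Rpp21 encode proteins that bind each other, and Pop4 is counterpart to a subunit of the archaeal enzyme. Pop4 was at 5.76 CPM for APP.3, 9.65 for APP.4, 12.6 for WT.1 and 6.21 for WT.2. Within each genotype 1 mouse was high and 1 was low, by 1.68-fold in APP and 2.03-fold in WT, the widest spread between mice among the 10 genes. Its log2 fold change of -0.30 had a 95% interval of -1.04 to 0.45, and it was 0.31 without WT.1, 0.02 without APP.3 and -0.72 without APP.4. Rpp21 had 3.21 and 2.58 CPM in the APP libraries and 2.53 and 2.60 in the WT libraries, a log2 fold change of 0.18 (-0.28 to 0.63).

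Pop5 and Rpp30 encode another pair of subunits with archaeal counterparts. Pop5 was at 17.5 CPM for APP.3, 19.8 for APP.4, 20.7 for WT.1 and 25.1 for WT.2. Both APP libraries were below both WT libraries, in the direction opposite to the RNAs. The log2 fold change was -0.29 (standard error 0.11, 95% interval -0.55 to -0.03), and the unadjusted p of 0.0312 did not pass after adjustment (0.341, edgeR's quasi-likelihood test). Without APP.4 it was -0.38 (adjusted p = 0.0319 from edgeR), a fit whose spread rests on the WT pair. Rpp30 had 7.20 and 7.46 CPM in APP and 7.30 and 7.76 in WT, which overlapped, and its log2 fold change was -0.04 (-0.34 to 0.26).

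Pop7 encodes a small subunit that pairs with Rpp25. It had 6.45 and 6.10 CPM in the APP libraries and 6.03 and 6.54 in the WT libraries, with the groups interleaved. The log2 fold change was 0.00 (-0.32 to 0.32). Rpp38, whose protein belongs to the family of ribosomal protein L7Ae and binds kink-turns of RNA, had 4.07 and 2.78 CPM in APP and 4.03 and 3.92 in WT, and APP.4 alone was low. Its log2 fold change was -0.22 (-0.69 to 0.25), and 0.03 without APP.4. Rpp40, whose protein is assembled with that of Pop5, had 6.20 and 4.78 CPM in APP and 5.10 and 4.60 in WT, with APP.3 the highest and a log2 fold change of 0.18 (-0.22 to 0.57).

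For Pop5, Pop7, Rpp30 and Rpp38, the 95% interval ended below 0.37, the log2 fold change of Rmrp. For Pop1, Pop4, Rpp21 and Rpp40 it reached from 0.45 to 0.63, so these intervals include a change as large as that of Rmrp. The interval of Rmrp itself was 0.23 to 0.50, and those of Pop7, Rpp30 and Rpp38 overlapped it, ending at 0.32, 0.26 and 0.25. Only the interval of Pop5 lay wholly below those of both Rpph1 and Rmrp. In a bulk sample, more cells of a type that expresses a gene and more RNA per cell cannot be told apart, for the RNAs as for the mRNAs.

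**Figure D2:**
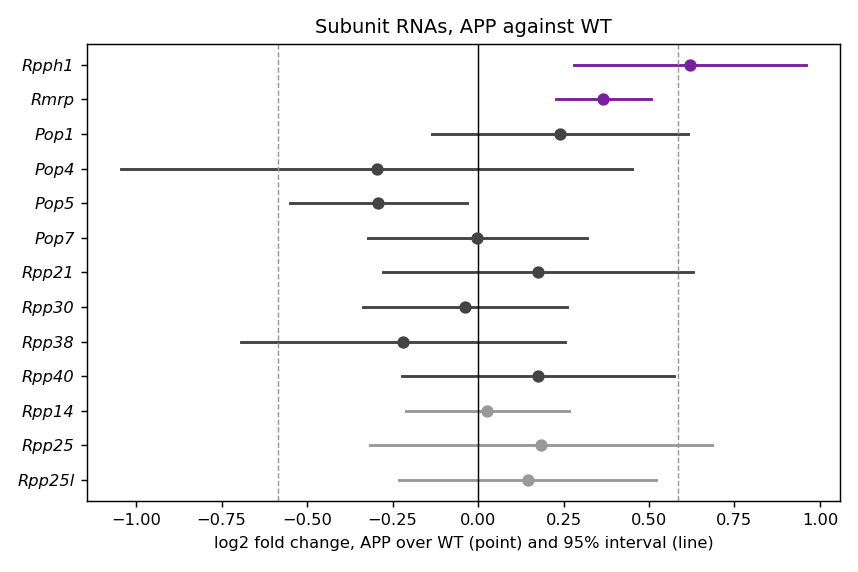
Log2 fold change of APP over WT for each subunit gene (points) with its 95% interval from edgeR (lines), in purple for the RNA subunits, dark for the 8 protein subunits and light for 3 further subunits, with dashed lines at a 1.5-fold change. The intervals of Rpph1 and Rmrp lie above 0, that of Pop5 below 0, and those of all others shown cross 0.

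Summed over the 8 protein subunits, the mRNAs made up 61.0 CPM of APP.3, 60.9 of APP.4, 66.0 of WT.1 and 64.6 of WT.2. The sums were lower in both APP libraries, with means of 60.9 and 65.3 and a ratio of 0.934. The gap was close to that of Pop5 alone, which had a mean of 18.7 CPM in APP and 22.9 in WT. Set against this sum, CPM of Rmrp was 42.1 and 46.0 times as high in the APP libraries and 30.8 and 33.1 times in the WT libraries, 1.38 times as high a ratio in APP. For Rpph1 the ratios were 63.3 and 42.8 in APP and 30.7 and 33.8 in WT, 1.65 times as high in APP. Neither ratio overlapped between the groups, and left with 1 mouse of a group the APP over WT value ran from 1.32 to 1.44 for Rmrp and from 1.33 to 1.96 for Rpph1. Rpph1 to Rmrp, as a ratio of CPM, was 0.930, 0.997 and 1.02 in APP.4, WT.1 and WT.2 and 1.5 in APP.3.

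**Figure D3:**
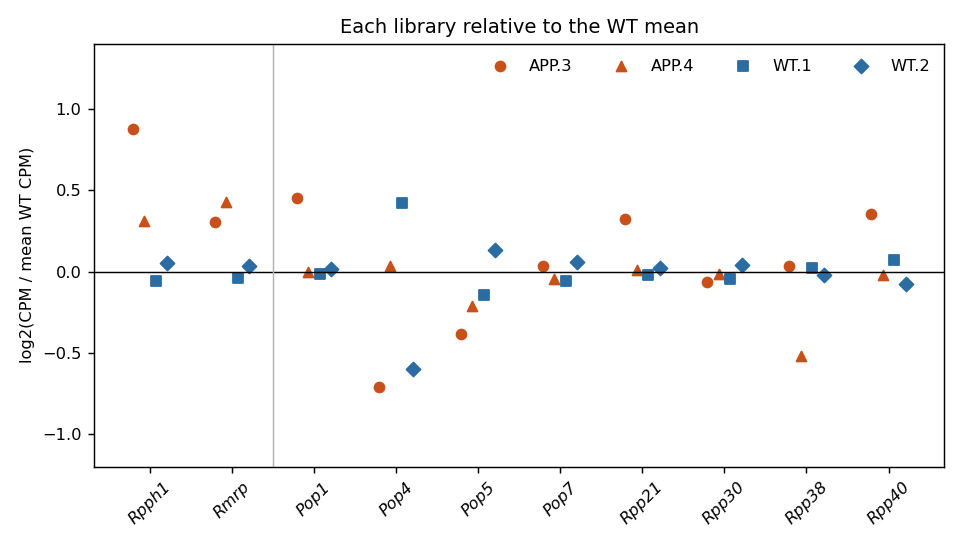
Each library's CPM of each subunit gene relative to the mean of the WT libraries, as log2, with the RNA subunits left of the vertical line and symbols as named in the legend. For Rpph1 and Rmrp both APP symbols lie above both WT symbols, for Pop5 both lie below, and for the other genes they are mixed.

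A further 3 subunits were listed beside the 10. Rpp25 encodes the partner of Pop7, Rpp25l a protein related to Rpp25, and Rpp14 a partner of Pop5. All of them had fold changes above 0 on the log2 scale and none passed: 0.03 for Rpp14 (95% interval -0.21 to 0.26), 0.18 for Rpp25 (-0.32 to 0.68) and 0.14 for Rpp25l (-0.23 to 0.52). Rpp14 had between 722 and 1022 counts in a library, Rpp25 between 102 and 176, and Rpp25l between 146 and 216. The groups overlapped for each of the 3.

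Rpph1 has relatives in the mouse genome, annotated as RNase P RNA-like genes, and the APP libraries differed in these more than in Rpph1. Rprl3 on chromosome 8 had 79 counts for APP.3 against 17175 for APP.4, and 20052 and 17485 in the WT libraries. Rprl2 on chromosome 3 had 28 counts in APP.3, against 5471 for APP.4 and 6366 and 5389 for the WT libraries. Rprl1 on chromosome 6 had 0 counts in APP.3 and 221, 235 and 173 in the others. APP.3 thus stood apart from the other mouse of its own genotype, while APP.4 was near the WT libraries. A count of 0 allows up to 3 counts, a limit that covers counting error only.

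Together the relatives took 22.1% of the counts on the 4 genes for APP.4, 23.1% for WT.1 and 22.9% for WT.2, against 0.0954% for APP.3. The 4 genes summed to 3866 CPM for APP.3 and 3344 for APP.4, and to 2631 and 2834 for WT.1 and WT.2. On the summed counts the APP libraries lay closer together than on Rpph1 alone and stayed above both WT libraries. The sum had a 95% interval of 0.22 to 0.58 around its log2 fold change of 0.40, and an adjusted p of 0.0593 by edgeR. It was nearer to that of Rmrp (0.37) than that of Rpph1 alone was (0.62). Whether reads of 1 gene were placed on another in APP.3 was not tested, since the files hold counts and no reads.

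**Figure D4:**
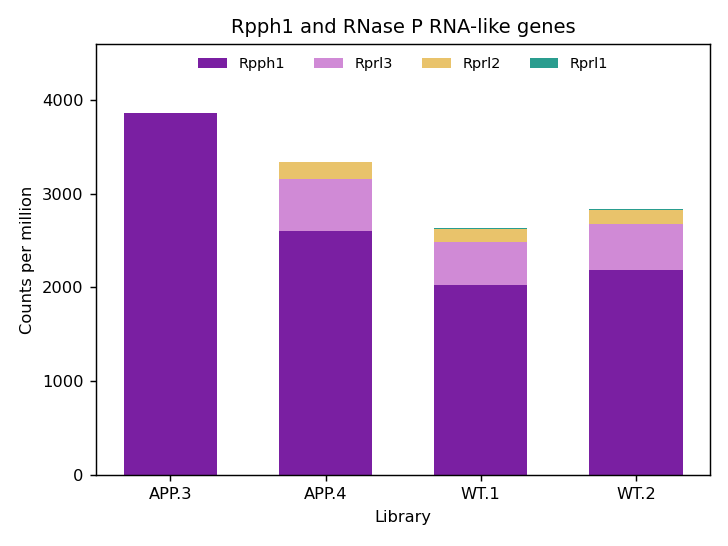
CPM of Rpph1 (dark purple), Rprl3, Rprl2 and Rprl1 stacked for each of the 4 libraries, each bar being 1 mouse. The total is highest in APP.3, which shows next to nothing of the relatives, and the relatives take between 22.1% and 23.1% of the bar in the other 3.

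Parts of the relatives resemble Rpph1 over the length of a read. Rpph1 and Rprl3 had 88.2% identical bases in their alignment, Rprl2 87.8% and Rprl1 83.4%, and their longest identical runs with Rpph1 were 37, 32 and 27 bases. Of the stretches of 100 bases in Rprl3, 55.5% came within 7 mismatches of Rpph1, as did 44.0% of those in Rprl2 and 21.9% of those in Rprl1. None was identical to Rpph1, and the fewest mismatches were 3 for Rprl3, 5 for Rprl2 and 6 for Rprl1. Rpph1 differs from all of them by a gap of 21 bases, at nucleotides 182 to 202. There it holds 2 copies in tandem of the unit below, up to nucleotide 223, which has 0 exact copies in Rprl1, Rprl2, Rprl3 or Rmrp. The unit is shown because it lies at the longest gap in the alignments.
Tandem unit: gcggatgcctccctcgccgga

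The element for the miRNAs of the study is one that the relatives share. miR-330-5p and miR-326-3p have the same seed, in capitals below (mature sequences from RefSeq on GRCm38.p6), and its complement occurs once in Rpph1.
mmu-miR-330-5p: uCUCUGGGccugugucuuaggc
mmu-miR-326-3p: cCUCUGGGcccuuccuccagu

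The 40 nucleotides around the element, from 109 to 148, show that the 8 bases in capitals are the same in all 4 genes while bases beside them differ.
Rpph1 element: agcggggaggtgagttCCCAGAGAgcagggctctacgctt
Rprl1 element: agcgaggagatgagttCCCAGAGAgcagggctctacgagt
Rprl2 element: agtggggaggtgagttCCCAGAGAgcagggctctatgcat
Rprl3 element: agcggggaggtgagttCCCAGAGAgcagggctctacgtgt

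Rmrp has no match to the 7-base complement. Of the 8 protein subunits, the most abundant transcripts of Pop1 and Rpp40 hold 3 matches and 1, and the other 6 hold none. A match of letters is a description and says nothing of binding. For Rpph1, the study reported that both miRNAs lowered a luciferase reporter, and that mutating the element removed this effect. Rpph1 and its relatives share the element. The counts of the 4 genes together were higher in both APP mice, but the sum did not pass (adjusted p = 0.0593 by edgeR's quasi-likelihood test).

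The primers and the siRNA that the study designed for Rpph1 fall on shared sequence too. The forward primer starts at nucleotide 35 of each gene and matches Rpph1 in full. It has 3 mismatches to Rprl1 and 2 each to Rprl2 and Rprl3, none of them in its last 3 bases, and mismatched bases are in capitals in the sites.
Forward primer: agtgcgtgtcactcttcg
Rprl1 site: agtgATCgtcactcttcg
Rprl2 site: agtgcTGgtcactcttcg
Rprl3 site: agtgcTCgtcactcttcg
The reverse primer matched Rpph1, Rprl2 and Rprl3 in full and Rprl1 with 1 mismatch, at its 3′ end. The siRNA, complementary to nucleotides 26 to 50, has 3 mismatches to Rprl1 and 2 each to the others.
Reverse primer: tgctctctgggaactcac
siRNA: aagagugacacgcacucagcacgug
No measurement with these reagents was analysed here, so what they detect of each gene was not tested.

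Genes next to the RNA subunits were read beside them. Parp2, a poly(ADP-ribose) polymerase of DNA repair, starts 73 bases from Rpph1 on the opposite strand. It had 9.31 and 12.8 CPM in the APP libraries and 11.2 and 10.6 in the WT libraries, and a log2 fold change of 0.02 (-0.34 to 0.37), with APP.3 the lowest where Rpph1 was highest. Ccnb1ip1, a regulator of meiotic crossing-over, overlaps Rpph1 by 284 bases on the same strand and had 5 counts in APP.3 and 32, 33 and 26 in APP.4, WT.1 and WT.2. Its low count in APP.3 goes with those of the 3 relatives, and the cause was not tested. Ccdc107 overlaps Rmrp by 159 bases on the opposite strand and had 228, 245, 297 and 247 counts in APP.3, APP.4, WT.1 and WT.2. Scaled to library size, that was 7.86 and 7.91 CPM in APP and 6.76 and 6.97 in WT. The groups did not overlap, as for 42.7% of all features, and the log2 fold change was 0.20 (-0.09 to 0.49). These neighbours had at most 494 counts, against at least 74591 for either RNA.

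Upstream sequence is shown for both RNA subunits because both stood higher in APP, read on the strand of the RNA, with the octamer in capitals. No promoter window was listed for either RNA. The sequence comes from RefSeq promoter windows of the neighbouring genes Parp2 and Ccdc107 on GRCm38.p6. Octamers of this kind are known in the distal elements of RNA polymerase III promoters. The octamer ends 93 bases upstream of the first base of Rpph1 and 216 upstream of that of Rmrp, where it reads as the reverse complement. The stretch for Rpph1, chr14:50807768-50807887, reaches to the start of the RNA, and that for Rmrp, chr4:43493115-43493301, stops short of it. Each stretch was cut just beyond the octamer and so holds it by construction.
Rpph1 upstream: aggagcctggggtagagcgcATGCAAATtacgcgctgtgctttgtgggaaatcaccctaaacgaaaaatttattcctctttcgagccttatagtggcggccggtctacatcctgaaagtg
Rmrp upstream: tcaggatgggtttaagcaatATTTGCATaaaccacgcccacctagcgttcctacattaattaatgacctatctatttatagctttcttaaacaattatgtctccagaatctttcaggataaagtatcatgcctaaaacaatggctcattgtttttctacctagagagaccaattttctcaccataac
ATTTGCAT, searched on both strands, occurred in 1.74% of 32851 promoter windows. It occurred in 0 of the 6 windows found for the protein subunits, with none listed for Pop1 and Rpp21. These letters are a description of the windows and not a test of any factor.

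Snapc1, which encodes a subunit of the complex that binds the proximal element of such promoters, was the 1 gene of 37 listed for RNA polymerase III transcription that passed. It had 31.3 and 28.5 CPM in APP and 18.4 and 17.6 in WT, with the APP libraries well above the WT libraries. It rose by 0.73 on the log2 scale (95% interval 0.53 to 0.92, adjusted p = 0.00685 by edgeR). The median over the 37 genes was -0.01, and 17 were above 0 and 20 below. An unadjusted p under 0.05 was found for 3 of the 37 in edgeR's quasi-likelihood fit, Snapc1 among them. Over all features, 1.14% passed in either direction. Snapc2, Snapc3, Snapc4 and Snapc5, the other subunits of that complex, had log2 fold changes of 0.04, -0.03, 0.01 and 0.08, with adjusted p-values of at least 0.888 from edgeR.

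Other steps of tRNA maturation showed no call. Of 20 listed genes, which include the 3′ end nuclease Elac2, the splicing endonuclease and the ligase Rtcb, 0 passed and the median log2 fold change was 0.02. The smallest p was that of Thg1l, which adds the 5′ guanine of histidine tRNA, at a log2 fold change of 0.42 (adjusted p = 0.371 from edgeR), and 1 gene had an unadjusted p under 0.05. Of 38 genes of ribosomal RNA processing, the pathway of RNase MRP, 0 passed, 18 were above 0 and 20 below, with 4 at an unadjusted p under 0.05. Nop14, of the small subunit processome, came nearest at 0.34 (adjusted p = 0.139 from edgeR). A list of 7 other small non-coding RNAs had a median of 0.53, and all 7 were above 0. That median was 0.95 without APP.3, 0.30 without WT.2 and 0.02 without APP.4, when it was no longer above that of the protein subunits (0.04). None of the 7 passed, and 1 had an unadjusted p under 0.05. Its smallest p belonged to Rny3, a Y RNA, with 34 and 69 counts in APP and 37 and 31 in WT (0.99, adjusted p = 0.296 from edgeR). Rn7sk and Rn7s1, by far the most counted of this list, had log2 fold changes of 0.03 and 0.13. Rn7s2, Rny3, Vaultrc5 and Terc had at most 69 counts in a library. Over all 18386 features, 2232 had an unadjusted p under 0.05 in the same fit.

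**Figure D5:**
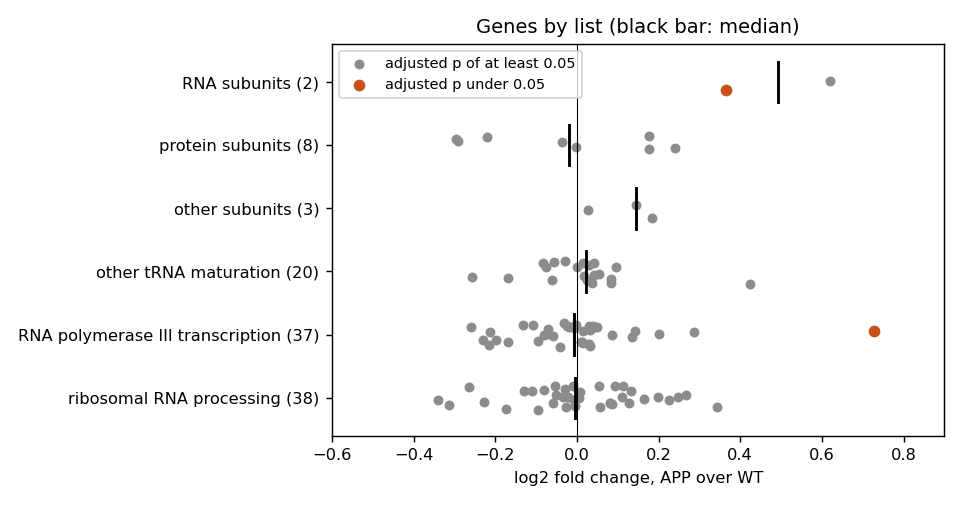
Log2 fold change of APP over WT for each gene of 6 lists (points, with the number of genes in parentheses and black bars at the medians), in orange where the adjusted p was under 0.05. The medians of the protein subunits (-0.02), tRNA maturation (0.02), RNA polymerase III (-0.01) and ribosomal RNA (-0.01) lists lie near 0, and Rmrp and Snapc1 are the orange points.

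The genes whose profile over the 4 libraries was most like that of each RNA were found among 9347 genes of at least 10 CPM, by the Euclidean distance between centred log2 CPM. For Rpph1 they were Cldn11, a claudin of myelin (distance 0.158), Bex1 (0.164) and Amotl1 (0.220). Cldn11 had 62.5 and 44.0 CPM in APP and 29.8 and 36.7 in WT, with APP.3 the highest, as for Rpph1. For Rmrp they were Fdps, an enzyme of isoprenoid synthesis (0.0316), Dock10 (0.0340) and Atp6v0e, a proton pump subunit (0.0387). Rpph1 and Rmrp were 0.540 apart, with 4.62% of the genes nearer to Rpph1 than Rmrp was, and 84.9% nearer to Rmrp than Rpph1 was. Of the protein subunits, Pop1 (0.385), Rpp21 (0.469) and Rpp40 (0.483), each highest in APP.3, were nearest to Rpph1, with 0.620%, 1.86% and 2.14% of the genes nearer. Pop4 was farthest (1.48), with 99.8% of the genes nearer, and Pop5 had 97.8%. Rpp21 was nearest to Rmrp (0.364). Of the protein subunits, only Pop5 reached a mean of 10 CPM. The others were thus ranked against better counted genes, a set to which they do not belong. These distances describe 4 libraries and carry no test.

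Markers of other cells also differed between the libraries. The 5 oligodendrocyte markers summed to 1702 and 1499 CPM in APP.3 and APP.4 and 1118 and 1236 in WT.1 and WT.2, the same order of libraries as Rpph1, and 3 of the 5 passed as higher. The 6 microglial markers summed to 186 and 216 CPM in APP and 113 and 111 in WT, with 4 of 6 passed as higher. APP.4 was above APP.3 as for Rmrp, while WT.1 was above WT.2, unlike for Rmrp. The 5 astrocyte markers summed to 3691 and 3991 against 3285 and 2931 CPM, with 2 of 5 higher. Of the 7 hypothalamic markers 5 were counted, at 3.93 and 5.97 CPM in APP and 0.478 and 0.367 in WT, with 2 passed as higher. The 4 thalamic markers summed to 53.0 and 48.4 CPM in APP and 40.8 and 37.9 in WT, with APP.3 the highest and 0 passed. The 6 striatal markers summed to 134 CPM in APP.3 and 293 in APP.4, on either side of the WT libraries (197 and 219), with 0 passed. The excitatory neuron markers were lower in APP, at 3094 and 2839 CPM against 3296 and 3248, with 0 of 6 passed. Sums that overlapped between the groups, with 0 passed, were those of interneuron, endothelial and choroid plexus markers. They were 451 and 551 CPM in APP and 547 and 505 in WT for interneurons. For endothelium they were 30.8 and 25.1 against 30.4 and 26.7, and for choroid plexus 4.10 and 3.07 against 3.48 and 4.51. None of the counted markers in these lists was at 0 in all libraries. Their part in the levels of Rpph1 and Rmrp was not tested.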

How the data were processed

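The authors removed pairs of ribosomal origin, placed the remaining reads on Ensembl mouse RNA by FANSe2 with up to 7 mismatches, and deposited the raw count of reads on each of 37539 transcripts. The submitters' processing notes name CASAVA 1.8 and edgeR, and a human build, hg19, although the deposited identifiers are of mouse transcripts. The Ensembl release is not given in the sources used here. Deposited columns of log2 CPM per library (4), and the authors' log2 fold change, mean, p-value and FDR, were not used. No column belonged to another sample (0 columns). The WT columns match their samples by number, and the APP columns, numbered 3 and 4, match only their group.

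The deposited symbols equalled the name of 0 of the 10 genes, through case or blanks, so transcripts were matched by identifier to GENCODE M21 and summed per gene, in place of the planned sum by symbol. This covered 98.2% of the transcripts, and the 681 others stayed features of their own. All 18386 features had at least 10 counts.

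Counts were tested with edgeR 4.0.16 (glmQLFit and glmQLFTest, TMM) in R 4.3.3 with limma 3.58.1, with no covariate. Calls were an adjusted p under 0.05, and with it a fold change of at least 1.5. The tests were tried on simulated data first. DESeq2 1.42.0, edgeR's other tests, scaling, filters, transcripts, a sum of similar genes and leaving out each library were alternatives. Sequences were compared with blastn 2.17.0 and Biopython 1.88 in Python 3.11.15.

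The genes and lists were chosen with earlier results of these data known. Named were all 10 genes, the further subunits, RNase P RNA-like and neighbouring genes, list genes past the test or else of smallest p, and the 3 nearest profiles of each RNA. Elac2, Rtcb, Snapc2 to Snapc5, Rn7sk, Rn7s1, Rn7s2, Vaultrc5 and Terc were added after their values were seen.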

Additional observations from a re-analysis of the deposited data

How the results depend on the processing

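Rmrp no longer passed with the exact or likelihood ratio test of edgeR (log2 fold change 0.37 with both), and Rpph1 did (0.62 with both), giving 1 gene past both cut-offs with each. Transcripts in place of genes gave 2 genes past the adjusted p and 1 past both cut-offs, with Rpph1 at 0.63. With 1 library left out, the number past the adjusted p ran from 0 to 4 and past both cut-offs from 0 to 2, Rpph1 ran from 0.31 to 0.88 and Rmrp from 0.31 to 0.43. The 4 without APP.4 were Rpph1, Rmrp, Pop4 and Pop5. Such fits take their spread from 1 pair and assume that the lone mouse varies likewise. The WT pair differed less than the APP pair for Rpph1.

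Log2 fold changes of protein subunits changed sign when 1 library was left out. Over these fits Pop1 ran from -0.0042 (without APP.3) to 0.45, Pop4 from -0.72 (without APP.4) to 0.31 (without WT.1, and 0.017 without APP.3), Pop7 from -0.061 to 0.060 (without WT.2, and 0.041 without APP.4), Rpp30 from -0.081 to 0.0090 (without WT.2), Rpp38 from -0.52 to 0.035 (without APP.4) and Rpp40 from -0.024 (without APP.3) to 0.36. On library totals without TMM Pop7 was at 0.0033. The causes were not tested. Of 179 values recomputed, 150 were classed as unchanged, 4 lost a call, 7 gained one, 9 values of single genes changed sign and 9 moved. Those classed as unchanged include the median log2 fold change of the protein subunits, which did change sign. It was -0.02 with all libraries, 0.04 without APP.4, 0.05 without WT.1 and 0.03 without WT.2.

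No paired analysis was made, since the labels give no pairing of an APP mouse with a WT mouse. With 2 mice a group and 80 to 112044 counts, the number of mice limits the RNAs, and depth also limits the rarer mRNAs.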

Other observations

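Transcripts that stood apart in a single library were counted, over those with at least 50 counts in each other library. In APP.3, 5 transcripts were under 10% of the lowest other library, and 3 of them were Rprl1, Rprl2 and Rprl3, beside Hist1h4m and Gm4735, named after their values were seen. The number was 0 in APP.4, WT.1 and WT.2. Over 10 times the highest other library, among those with at least 50 counts, were 6 transcripts of APP.3, 4 of APP.4, 1 of WT.1 and 0 of WT.2, none of them of the subunit genes.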
